A study of Homo sapiens with 14 samples.

Results

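Semaphorins, ephrins and their receptors made up 54 of the 19410 genes in the expression table of MDA-MB-231 cells, a mesenchymal-like triple-negative breast cancer line. Members were taken by gene name: names starting with SEMA, PLXN, EFNA or EFNB, names starting with EPHA or EPHB followed by a number, and NRP1 and NRP2. They comprised 28 ligands, of which 20 were semaphorins and 8 were ephrins, and 25 receptors, of which 11 were plexins or neuropilins and 14 were Eph receptors. The remaining member, EPHA1-AS1, is an antisense transcript and was counted with neither. Sequencing covered unedited parental cells and 6 CRISPR/Cas9 lines, with 2 libraries each: SAP30-KO1 and SAP30-KO2, SIN3A+SIN3B-DKO1 and SIN3A+SIN3B-DKO2, and MLL1-KO1 and MLL1-KO2. SAP30, SIN3A and SIN3B are subunits of the SIN3 transcriptional corepressor complex, and MLL1 is a histone H3 lysine methyltransferase linked to gene activation. Each edited line was a mixture of several single knockout cells that had been expanded, not 1 clone. The paper describes culture of MDA-MB-231 cells in serum-supplemented medium, and the sample titles name no treatment. Per the paper, the edited lines had received an sgRNA vector and puromycin selection. It does not describe these steps for the parental cells.

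Semaphorins are secreted or membrane-bound guidance cues that signal mainly through plexins, and the secreted class also needs a neuropilin to bind most plexins. Ephrins are membrane-bound and signal through Eph receptor tyrosine kinases on the neighboring cell, with ephrin-A ligands held by a lipid anchor and ephrin-B ligands crossing the membrane. Both systems steer growing axons and vessels, and in epithelial tumors they are known for effects on cell adhesion, migration and angiogenesis.

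Reads recovered from the gene values summed to between 18415036 and 23162682 per library. Values are given as TPM, a transcript abundance scaled for gene length and library total, so levels of different genes can be compared. Of the targeted genes, SAP30 was at 78.9 and 82.8 TPM in parental libraries and between 2.75 and 4.96 TPM in the SAP30-KO libraries. MLL, the gene of MLL1, was at 49.0 and 56.7 TPM in parental libraries and between 15.8 and 27.7 TPM in the MLL1-KO libraries, and it was also lower than parental in both SAP30-KO lines, at 23.0 and 31.6 TPM in SAP30-KO1 (-0.95, adjusted p = 2.7e-04, limma) and 31.3 and 35.4 TPM in SAP30-KO2 (-0.65, 0.0033). SIN3B was at 75.1 and 77.4 TPM in parental libraries and between 43.5 and 50.2 TPM in the libraries labelled SIN3A+SIN3B-DKO. SIN3A RNA was not lower in those libraries, at 55.1 to 62.5 TPM against 43.1 and 45.4 TPM, so that RNA levels give no check of the SIN3A edit. VIM, CD44, EGFR and FN1 were at 96.1 TPM or more in every library, and the estrogen and progesterone receptor genes ESR1 and PGR stayed at or below 0.191 TPM. EPCAM and GATA3, listed as low or absent in this line, were at 5.33 TPM or more in every library. The endothelial markers CDH5, TEK and VWF and the leukocyte markers PTPRC and CD3E never reached 1 TPM, whereas PECAM1 was at 1.55 to 3.97 TPM, KDR reached 6.44 TPM and CD14 3.98 TPM. Of the neuronal or glial markers RBFOX3 and SNAP25 never reached 1 TPM, GFAP reached 3.39 TPM and MBP was at 24.8 to 61.1 TPM. The part of these cell types in the results was not tested.

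In parental cells 21 members had a mean of at least 10 TPM. EPHA2, an ephrin-A receptor, stood at 334 and 330 TPM and NRP1, a coreceptor of secreted semaphorins and of VEGF-A, at 267 and 268 TPM. Together both genes held 60.8% of the summed receptor TPM. PLXNA1 followed at 111 and 104 TPM, PLXNB2 at 91.9 and 89.3 TPM and the ephrin-B2 receptor EPHB4 at 54.7 and 54.2 TPM. Ligand RNA was spread more evenly: EFNB2 was at 67.6 and 68.8 TPM and SEMA3C at 63.9 and 64.8 TPM, and together they held 27.3% of the summed ligand TPM. SEMA3B, SEMA3F and SEMA7A followed at parental levels between 39.8 and 43.2 TPM.

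The test needed 1 TPM in at least 2 libraries, which 42 members passed, 23 ligands and 19 receptors. EFNB3, SEMA3E and SEMA4G passed through the parental libraries alone and PLXNA4 through MLL1-KO2 alone, so these 4 genes could hardly have passed without a difference. A gene was called lower or higher than in parental cells when its adjusted p from limma was under 0.05 and the change was at least 1.5-fold. SAP30-KO1 had 7 members called lower and 3 higher, against 7.86% and 7.80% of all 13540 genes tested. The counts were 9 and 4 in SAP30-KO2, against 8.12% and 7.44% of all genes. In SIN3A+SIN3B-DKO1 12 members were called lower and 1 higher, against 8.66% and 7.76%, and in SIN3A+SIN3B-DKO2 8 were lower and 1 higher, against 7.56% and 6.0%. MLL1-KO1 had 13 lower and 12 higher members, against 16.3% and 6.89%, and MLL1-KO2 had 13 lower and 12 higher, against 14.9% and 10.2%.

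Over the 38 members that reached 1 TPM in more than 1 group, the share called lower was 10.5% in SAP30-KO1, 15.8% in SAP30-KO2, 23.7% in SIN3A+SIN3B-DKO1, 13.2% in SIN3A+SIN3B-DKO2 and 26.3% in each MLL1-KO line. The same share over all genes with that property was 6.98%, 7.26%, 7.80%, 6.70%, 15.6% and 14.1% in the same order of lines. The share of these members called higher was 28.9% in each MLL1-KO line, against 6.86% and 10.1% of all such genes, and 2.63% in each SIN3A+SIN3B-DKO line, against 7.75% and 6.03%. Of the 42 members tested, 35 were called in at least 1 line, against 41.4% of all genes. Those 35 include EFNB3, SEMA3E, SEMA4G and PLXNA4, which each passed the filter through 1 group alone. SEMA4C was the 1 member called lower in 1 line and higher in another, against 3.06% of all genes. EFNA3, EFNA4, EPHA2, EPHB4, NRP1, SEMA4F and SEMA7A were called in no line.

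**Figure D1:**
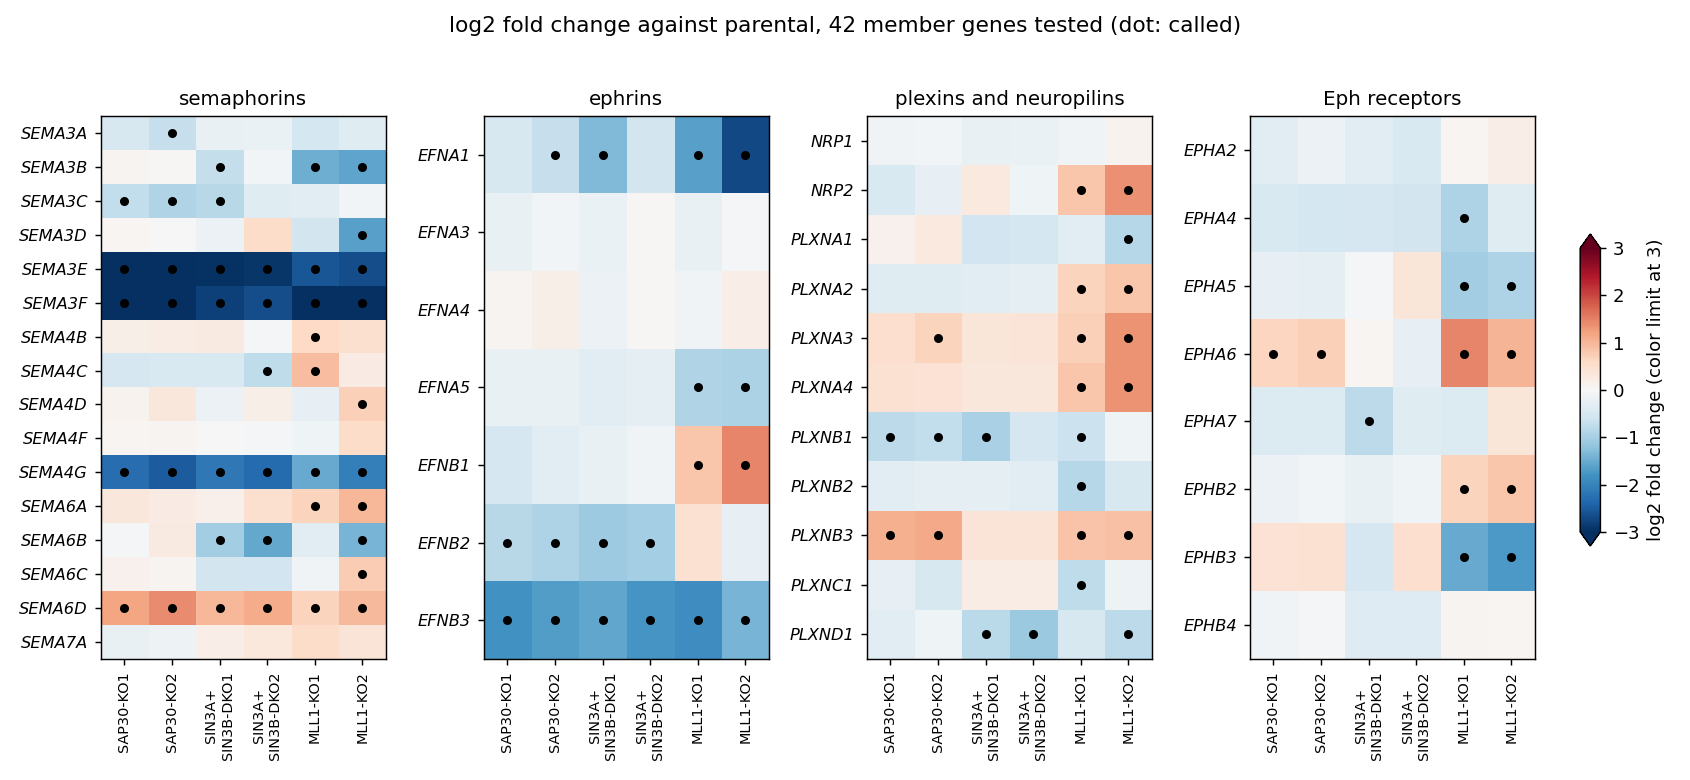
Log2 fold change against parental cells (color, on the log2(TPM + 0.5) scale, limited at 3 in either direction) for the 42 members tested, in rows by family, in each of the 6 edited lines. Dots mark called changes, and the rows of SEMA3E, SEMA3F, SEMA4G, EFNB3 and SEMA6D carry a dot in all 6 lines.

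In every edited line 4 ligands were called lower, namely SEMA3F, SEMA3E, SEMA4G and EFNB3, and 1 ligand, SEMA6D, was called higher. The corresponding shares over all genes were 2.67% lower and 0.945% higher in all 6 lines. All 6 comparisons share the same parental libraries, so agreement between lines is not independent. The part of the parental culture in it was not tested. SEMA3E, SEMA4G and EFNB3 passed the filter through parental cells alone and could hardly have passed without a difference. Their calls thus add no support beside the share of all genes. The stretches of 250 bases upstream of the annotated starts are shown for SEMA3F, SEMA3E and SEMA4G, which fell together, and for SEMA6D, which rose, in GRCh38.p14 as RefSeq gives them, each on its gene's strand. EFNB3 had no entry. Capitals mark the GC box, GGGCGG or its reverse complement CCGCCC, the sequence bound by Sp-family activators, counted on both strands with overlaps. The SEMA3F stretch, chr3:50154808-50155057 on the plus strand, held 12 GC boxes and 34 CpG dinucleotides. That of SEMA3E, chr7:83649140-83649389 on the minus strand, held no GC box and 6 CpG dinucleotides.
SEMA3F: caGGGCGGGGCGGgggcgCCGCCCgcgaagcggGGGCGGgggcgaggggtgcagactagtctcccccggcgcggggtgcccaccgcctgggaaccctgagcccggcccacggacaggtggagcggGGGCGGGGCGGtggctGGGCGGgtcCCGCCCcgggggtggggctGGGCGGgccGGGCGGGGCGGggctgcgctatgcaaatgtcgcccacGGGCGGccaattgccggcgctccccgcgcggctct
SEMA3E: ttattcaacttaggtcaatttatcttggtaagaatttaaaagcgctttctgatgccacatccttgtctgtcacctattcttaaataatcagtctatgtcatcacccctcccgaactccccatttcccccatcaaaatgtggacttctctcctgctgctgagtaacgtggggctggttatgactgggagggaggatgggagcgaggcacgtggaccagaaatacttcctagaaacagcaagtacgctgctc
The SEMA4G stretch, chr10:100969254-100969503 on the plus strand, held 2 GC boxes and 19 CpG dinucleotides. That of SEMA6D, chr15:47183839-47184088 on the plus strand, held no GC box and 9 CpG dinucleotides.
SEMA4G: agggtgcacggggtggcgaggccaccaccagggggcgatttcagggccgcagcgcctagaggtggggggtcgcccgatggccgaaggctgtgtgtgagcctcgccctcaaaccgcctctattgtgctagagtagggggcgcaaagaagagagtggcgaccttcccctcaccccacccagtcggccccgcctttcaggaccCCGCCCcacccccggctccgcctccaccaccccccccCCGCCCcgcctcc
SEMA6D: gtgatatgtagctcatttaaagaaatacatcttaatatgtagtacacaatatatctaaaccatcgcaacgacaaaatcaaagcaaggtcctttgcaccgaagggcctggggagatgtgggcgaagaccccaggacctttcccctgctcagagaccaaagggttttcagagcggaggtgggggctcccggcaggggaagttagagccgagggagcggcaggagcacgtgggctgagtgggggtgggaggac
The stretches of SEMA3F and SEMA3E, which fell in the same lines, thus differed widely in base composition, with 82.0% and 46.4% G and C. A GC box was present upstream of 37 of the 48 members with an entry, or 77.1%, against 42.3% of the 27305 promoters in the table. Those promoters were not limited to protein-coding or expressed genes, and the part of that in the gap was not tested. The median was 17 CpG dinucleotides over the members and 11 over all promoters. The TATA box letters TATAAA were found upstream of 1 member, or 2.08%, against 11.1% of all promoters, the E-box letters CACGTG upstream of 4, or 8.33%, against 6.49%, and the AP-1 letters TGACTCA upstream of none, against 4.16%.

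SEMA3F, a secreted semaphorin that repels endothelial and tumor cells through NRP2, was the abundant member of this group. It was at 40.1 and 41.4 TPM in parental cells, 4.27 and 3.78 TPM in SAP30-KO1, 3.17 and 3.16 TPM in SAP30-KO2, 5.36 and 5.41 TPM in SIN3A+SIN3B-DKO1, and 6.28 and 5.83 TPM in SIN3A+SIN3B-DKO2. In MLL1-KO1 it was at 1.53 and 1.59 TPM and in MLL1-KO2 at 1.09 and 1.15 TPM. All 12 edited libraries lay below the parental ones by more than 6-fold, and the MLL1-KO libraries were the lowest. The ratio of mean TPM, parental over line, ran from 6.72 in SIN3A+SIN3B-DKO2 to 36.4 in MLL1-KO2. On the log2(TPM + 0.5) scale the change was -2.65 ± 0.09 (SE) in SIN3A+SIN3B-DKO2 and -4.67 ± 0.09 in MLL1-KO2, with adjusted p of 1.1e-08 and 1.7e-11 (limma). The SAP30-KO lines exceeded the MLL1-KO lines by 1.15 ± 0.06 and the SIN3A+SIN3B-DKO lines exceeded them by 1.76 ± 0.06, both called.

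SEMA3E, a secreted semaphorin that binds PLXND1 without a neuropilin, had 225 and 230 reads in parental libraries, or 4.65 and 4.88 TPM. It had 2 and 5 reads in SAP30-KO1, 1 and 2 reads in SAP30-KO2, 11 and 9 reads in SIN3A+SIN3B-DKO1, 14 and 8 reads in SIN3A+SIN3B-DKO2, 20 and 22 reads in MLL1-KO1, and 13 and 19 reads in MLL1-KO2. No edited library came near the parental level, and the SAP30-KO libraries had the fewest reads. The ratio of parental to SAP30-KO2, from the reads, was 176.8 with an exact 95% binomial interval of 60.1 to 860.6, which covers counting error only. By the ratio of mean TPM, SEMA3E was 12.4-fold lower in MLL1-KO1. The fitted change ran from -2.57 ± 0.18 in MLL1-KO1 to -3.32 ± 0.18 in SAP30-KO2, with adjusted p of 3.6e-07 and 1.2e-07 (limma). Since SEMA3E passed the filter through parental cells alone, these p-values add no support. The MLL1-KO lines retained more SEMA3E than the SAP30-KO lines, with means of 0.362 and 0.048 TPM, and the difference, SAP30-KO minus MLL1-KO, was -0.66 ± 0.13 and was called.

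SEMA4G, a transmembrane semaphorin, had 89 and 96 reads in parental libraries, 3 to 7 reads in the SAP30-KO libraries, 4 to 11 in the SIN3A+SIN3B-DKO libraries and 8 to 26 in the MLL1-KO libraries. The parental level of 2.81 and 3.11 TPM was thus 4.14 times the mean of MLL1-KO1 and 27.0 times that of SAP30-KO2. EFNB3, a transmembrane ephrin, had 30 and 34 reads in parental libraries and between 0 and 6 in edited ones. From so few reads the ratio of parental to line was 33.7 (interval 8.96 to 284.3) in SAP30-KO1, 25.0 (8.19 to 124.6) in SIN3A+SIN3B-DKO2 and 73.0 (12.6 to 2927) in MLL1-KO1. These genes changed by -1.51 ± 0.19 to -2.51 ± 0.19 and by -1.39 ± 0.22 to -1.87 ± 0.22 on the log2(TPM + 0.5) scale, which understates changes at such levels. The largest adjusted p (limma) of either gene in any line was 1.9e-04. Both genes passed the filter through parental cells alone, so these p-values add no support.

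SEMA6D, a transmembrane semaphorin that binds PLXNA1, moved the other way from a low level. Parental libraries had 25 and 28 reads, or 0.50 and 0.574 TPM, and the edited libraries had 61 to 132 reads. Levels were 1.84 and 1.85 TPM in SAP30-KO1, 2.24 and 2.32 TPM in SAP30-KO2, 1.42 and 1.74 TPM in SIN3A+SIN3B-DKO1, 1.74 and 1.74 TPM in SIN3A+SIN3B-DKO2, 1.2 and 1.09 TPM in MLL1-KO1, and 1.42 and 1.64 TPM in MLL1-KO2. All edited libraries lay above the parental ones, by 2.13-fold in MLL1-KO1 to 4.24-fold in SAP30-KO2. The fitted change ran from 0.67 ± 0.13 (adjusted p = 0.0013, limma) in MLL1-KO1 to 1.42 ± 0.13 (7.1e-06) in SAP30-KO2. With a pseudocount of 1 the change in MLL1-KO1 was 0.48, below the fold minimum, and the call in that line was lost.

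**Figure D2:**
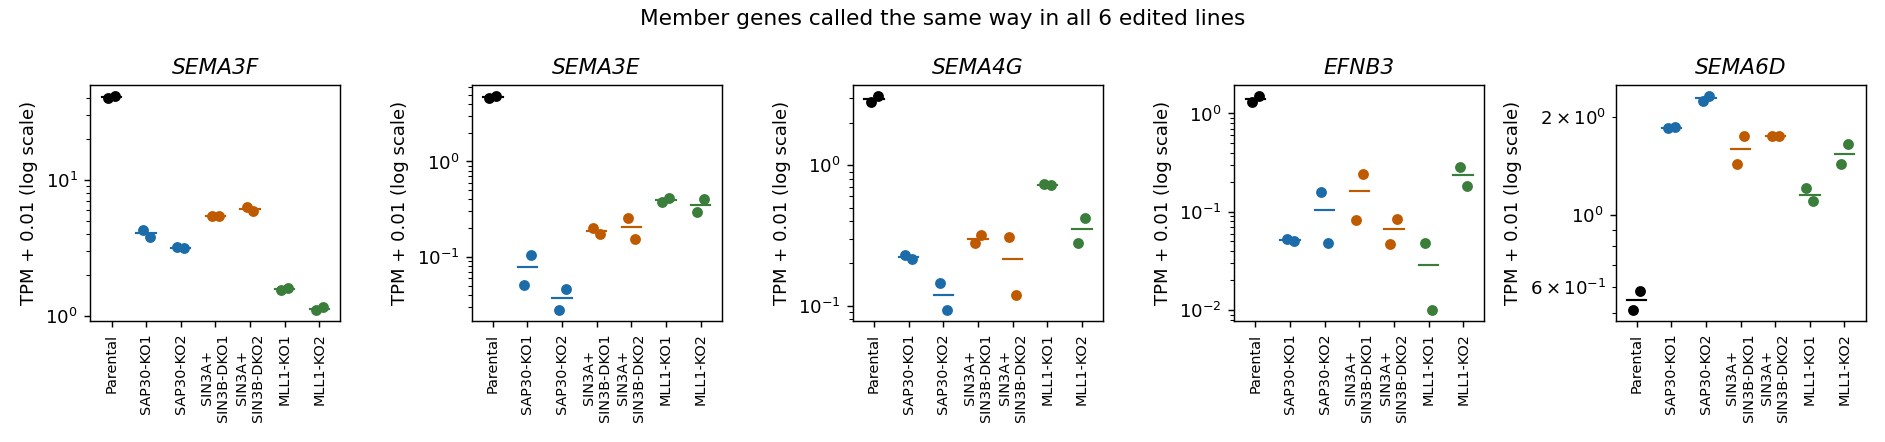
TPM + 0.01 on a log axis for each library (points) with the group mean (bars) of the 5 members called the same way in all 6 lines, in parental cells (black), SAP30-KO (blue), SIN3A+SIN3B-DKO (orange) and MLL1-KO lines (green). SEMA3F, SEMA3E, SEMA4G and EFNB3 lie lower in every edited library and SEMA6D lies higher.

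The other secreted semaphorins differed by genotype. SEMA3C, a ligand of NRP1, NRP2 and PLXND1, was at 63.9 and 64.8 TPM in parental cells, 39.1 and 37.8 TPM in SAP30-KO1, 34.3 and 34.4 TPM in SAP30-KO2, 37.4 and 34.3 TPM in SIN3A+SIN3B-DKO1, 46.8 and 53.7 TPM in SIN3A+SIN3B-DKO2, 52.5 and 50.1 TPM in MLL1-KO1, and 59.6 and 61.1 TPM in MLL1-KO2. It fell in SAP30-KO1, SAP30-KO2 and SIN3A+SIN3B-DKO1, with changes of -0.74 ± 0.06, -0.90 ± 0.06 and -0.84 ± 0.06, and was not called in the other 3 lines. SEMA3B, a secreted semaphorin encoded near SEMA3F on chromosome 3, was lower in other lines. It was at 43.2 and 40.0 TPM in parental cells and between 42.3 and 44.2 TPM in the SAP30-KO libraries, but at 14.1 and 15.1 TPM in MLL1-KO1 and 14 and 12.9 TPM in MLL1-KO2. It fell in both, with changes of -1.47 ± 0.08 and -1.59 ± 0.08 (adjusted p of 3.2e-08 and 1.5e-08, limma). In SIN3A+SIN3B-DKO1 it fell too, to 24.2 and 26.3 TPM (-0.71 ± 0.08), whereas SIN3A+SIN3B-DKO2 held 41.9 and 36.3 TPM. The difference between these lines, DKO1 minus DKO2, was -0.62 ± 0.08 and was called.

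Among membrane-bound semaphorins, SEMA6B was at 21.0 and 21.2 TPM in parental cells and fell in both SIN3A+SIN3B-DKO lines, to 10.3 and 9.65 TPM and to 7.96 and 6.12 TPM. It was at 19.4 to 25.8 TPM in the SAP30-KO libraries, and the SAP30-KO lines exceeded the SIN3A+SIN3B-DKO lines by 1.40 ± 0.07. The MLL1-KO lines split, with 16.3 and 17.7 TPM in MLL1-KO1 and 7.75 and 7.59 TPM in MLL1-KO2, where SEMA6B fell (-1.40 ± 0.10). SEMA6A, a ligand of PLXNA2 and PLXNA4, rose in both MLL1-KO lines, from 1.54 and 1.42 TPM to 2.65 and 2.67 TPM and to 3.42 and 3.51 TPM (0.68 ± 0.14 and 1.0 ± 0.14, adjusted p of 0.0015 and 8.1e-05, limma). SEMA4C, a PLXNB2 ligand, was at 41.2 and 37.9 TPM in parental cells. It rose to 77.0 and 73.0 TPM in MLL1-KO1 and fell to 24.6 and 21.6 TPM in SIN3A+SIN3B-DKO2. SEMA7A, the lipid-anchored semaphorin, ranged between 33.9 and 61.7 TPM over all libraries and passed the fold minimum in no line, with the highest change, 0.56 ± 0.06, in MLL1-KO1.

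EFNB2, the transmembrane ligand of EPHB4 and the most abundant ephrin, was at 67.6 and 68.8 TPM in parental cells, 37.8 and 38.2 TPM in SAP30-KO1, 35.3 and 36.3 TPM in SAP30-KO2, 31.9 and 31.2 TPM in SIN3A+SIN3B-DKO1, 31.6 and 35.7 TPM in SIN3A+SIN3B-DKO2, 95.2 and 92.8 TPM in MLL1-KO1, and 57.9 and 57.1 TPM in MLL1-KO2. The SAP30-KO and SIN3A+SIN3B-DKO libraries lay between 31.2 and 38.2 TPM, below all others. EFNB2 fell in these 4 lines, with changes from -0.84 ± 0.05 to -1.10 ± 0.05 and adjusted p of at most 3.3e-07 (limma), and was called in neither MLL1-KO line. The difference from the MLL1-KO lines was -0.99 ± 0.04 for the SAP30-KO and -1.16 ± 0.04 for the SIN3A+SIN3B-DKO lines, both called. EFNB1, the other ephrin-B ligand with appreciable RNA, was at 8.94 and 9.30 TPM in parental cells, 17.8 and 15.5 TPM in MLL1-KO1 and 26.7 and 25.8 TPM in MLL1-KO2. It rose by 0.83 ± 0.09 and 1.47 ± 0.09 there (adjusted p of 9.0e-06 and 7.6e-08, limma) and lay between 5.85 and 8.42 TPM, below parental and not called, in the other 8 edited libraries.

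EFNA1, the ephrin-A ligand best known for binding EPHA2, was at 6.39 and 6.84 TPM in parental cells, 1.72 and 1.91 TPM in MLL1-KO1 and 0.566 and 0.622 TPM in MLL1-KO2. SAP30-KO1 held 4.53 and 4.61 TPM, SAP30-KO2 4.2 and 3.59 TPM, SIN3A+SIN3B-DKO1 1.65 and 3.23 TPM and SIN3A+SIN3B-DKO2 4.63 and 4.11 TPM. EFNA1 lay below parental cells in all 12 edited libraries and fell in 4 lines. The changes were -1.62 ± 0.21 in MLL1-KO1, -2.70 ± 0.21 in MLL1-KO2, -1.33 ± 0.21 in SIN3A+SIN3B-DKO1 and -0.70 ± 0.21 in SAP30-KO2 (adjusted p of 4.6e-05, 6.9e-07, 2.7e-04 and 0.015, limma). The call in SAP30-KO2 was lost without Parental replicate 2 (adjusted p = 0.076) or without SAP30-KO2 replicate 2 (0.092). EFNA5 fell in both MLL1-KO lines, from 31.6 and 32.0 TPM to 16.8 and 16.9 TPM and to 16.0 and 16.5 TPM (-0.90 ± 0.06 and -0.95 ± 0.06). EFNA4 ranged between 12.1 and 16.8 TPM and EFNA3 between 2.91 and 5.00 TPM, and neither was called in any line.

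Of the neuropilins, NRP2, the coreceptor of SEMA3F, was at 9.66 and 9.47 TPM in parental cells, 17.8 and 17.1 TPM in MLL1-KO1 and 25.4 and 26.0 TPM in MLL1-KO2. It rose by 0.83 ± 0.14 and 1.38 ± 0.14 there (adjusted p of 3.9e-04 and 7.3e-06, limma) and lay between 6.15 and 12 TPM in the other edited libraries, called in none of those lines. NRP1 moved little, between 225 and 289 TPM over all 14 libraries, with changes of -0.22 ± 0.03 to 0.10 ± 0.03 that all missed the fold minimum.

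PLXNA2, PLXNA3, PLXNA4 and PLXNB3 were the plexins called higher in both MLL1-KO lines. PLXNA2, a receptor of class 6 semaphorins, was at 19.4 and 18.6 TPM in parental cells and at 30.9 and 29.7 TPM in MLL1-KO1 and 34.8 and 34.0 TPM in MLL1-KO2, with 13.8 to 16.0 TPM in the other edited libraries. The MLL1-KO groups lay above all others without overlap, and the changes were 0.66 ± 0.07 and 0.84 ± 0.07 (adjusted p of 1.1e-05 and 1.4e-06, limma). PLXNA3, the plexin partner of NRP2, was at 13.8 and 11.5 TPM in parental cells and 31.1 and 34.9 TPM in MLL1-KO2, where it rose by 1.35 ± 0.11. It also rose in MLL1-KO1 and SAP30-KO2, by 0.71 ± 0.11 and 0.66 ± 0.11, and both calls were lost without Parental replicate 2, with values of 0.58 and 0.53. PLXNA4 had 41 and 25 parental reads, 116 and 115 reads in MLL1-KO1, and 150 and 184 reads in MLL1-KO2. It rose by 0.84 ± 0.18 and 1.36 ± 0.18 there (adjusted p of 0.0019 and 5.2e-05, limma). PLXNA4 passed the filter through MLL1-KO2 alone and could hardly have passed without a difference, so its call in that line adds no support. PLXNA1, in contrast, was at 58.4 and 59.7 TPM in MLL1-KO2 and fell there (-0.86 ± 0.07).

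PLXNB3, the receptor of SEMA5A, rose from 6.83 and 6.40 TPM to 14.4 and 14.5 TPM in SAP30-KO1, 15.0 and 15.2 TPM in SAP30-KO2, 13 and 11.6 TPM in MLL1-KO1, and 11.1 and 14.4 TPM in MLL1-KO2. The change was between 0.85 ± 0.12 and 1.13 ± 0.12 in these lines. PLXNB1, the receptor of SEMA4D, was at 1.93 and 1.84 TPM in parental cells and fell in SAP30-KO1, to 0.832 and 0.929 TPM, in SAP30-KO2, to 1.01 and 0.863 TPM, in SIN3A+SIN3B-DKO1, to 0.704 and 0.739 TPM, and in MLL1-KO1, to 1.08 and 0.948 TPM. The changes lay between -0.66 ± 0.14 and -0.97 ± 0.14. Under quantile normalization that of MLL1-KO1 was -0.30 (adjusted p = 0.087) and was no longer called. PLXNB2 was at 91.9 and 89.3 TPM in parental cells and lower in all 12 edited libraries, at 48.6 to 78.3 TPM. It passed the fold minimum in MLL1-KO1, at 50.9 and 48.6 TPM (-0.86 ± 0.05), and missed it in MLL1-KO2, at 65.6 and 63.4 TPM (-0.49 ± 0.05), and in the other lines. The difference between the MLL1-KO lines, -0.37 ± 0.05, also missed it. PLXND1, the receptor of SEMA3E, was at 37.0 and 35.2 TPM in parental cells, and fell to 20.4 and 20.2 TPM in SIN3A+SIN3B-DKO1, 16.5 and 16.4 TPM in SIN3A+SIN3B-DKO2 and 19.8 and 21.3 TPM in MLL1-KO2. The changes were -0.81 ± 0.05, -1.11 ± 0.05 and -0.80 ± 0.05, with adjusted p of at most 4.9e-07 (limma).

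Of the 8 Eph receptors tested, at most 1 was called in any SAP30-KO or SIN3A+SIN3B-DKO line, and 5 and 4 were called in MLL1-KO1 and MLL1-KO2. The share of all genes called in either direction was 13.6% to 16.4% in the first 4 lines, 23.2% in MLL1-KO1 and 25.2% in MLL1-KO2. EPHB3 was at 1.48 and 1.15 TPM in parental cells, from 45 and 34 reads. MLL1-KO1 had 4 and 5 reads. MLL1-KO2 had 0 and 3, with a ratio of 25.9 from the reads (parental over line, interval 8.54 to 128.2), whereas SAP30-KO libraries had 55 to 72 reads. EPHB3 fell in the MLL1-KO lines (-1.52 ± 0.17 and -1.72 ± 0.17, adjusted p of 1.5e-05 and 4.8e-06, limma), and SAP30-KO lines exceeded MLL1-KO lines by 2.06 ± 0.12. EPHA5 fell with it, from 2.55 and 2.14 TPM to 0.937 and 0.808 TPM in MLL1-KO1 and 0.827 and 1.2 TPM in MLL1-KO2. EPHA6 moved the other way, from 1.91 and 1.90 TPM to 6.31 and 6.02 TPM in MLL1-KO1 and 4.73 and 4.06 TPM in MLL1-KO2, by 1.47 ± 0.12 and 1.02 ± 0.12 (adjusted p of 1.8e-06 and 2.9e-05, limma). It also rose in SAP30-KO1 and SAP30-KO2, to 3.20 and 3.27 TPM and to 3.58 and 3.30 TPM. EPHB2, a receptor of ephrin-B ligands, was at 26.8 and 26.2 TPM in parental cells and rose to 43.8 and 40.9 TPM in MLL1-KO1 and 45.6 and 50.2 TPM in MLL1-KO2, with 21.8 to 25.6 TPM in the other edited libraries. EPHA2, the most abundant member, ranged between 229 and 385 TPM, and its changes of -0.46 ± 0.04 to 0.21 ± 0.04 all missed the fold minimum. EPHB4 ranged between 40.0 and 58.7 TPM and was likewise called in no line.

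The other members tested were called in 1 line each. SEMA3A fell in SAP30-KO2, SEMA3D in MLL1-KO2, EPHA7 in SIN3A+SIN3B-DKO1, and EPHA4 and PLXNC1 in MLL1-KO1. SEMA4B rose in MLL1-KO1, and SEMA4D and SEMA6C rose in MLL1-KO2. Their called changes lay between -1.62 ± 0.10, for SEMA3D, and 0.75 ± 0.14, for SEMA6C.

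**Figure D3:**
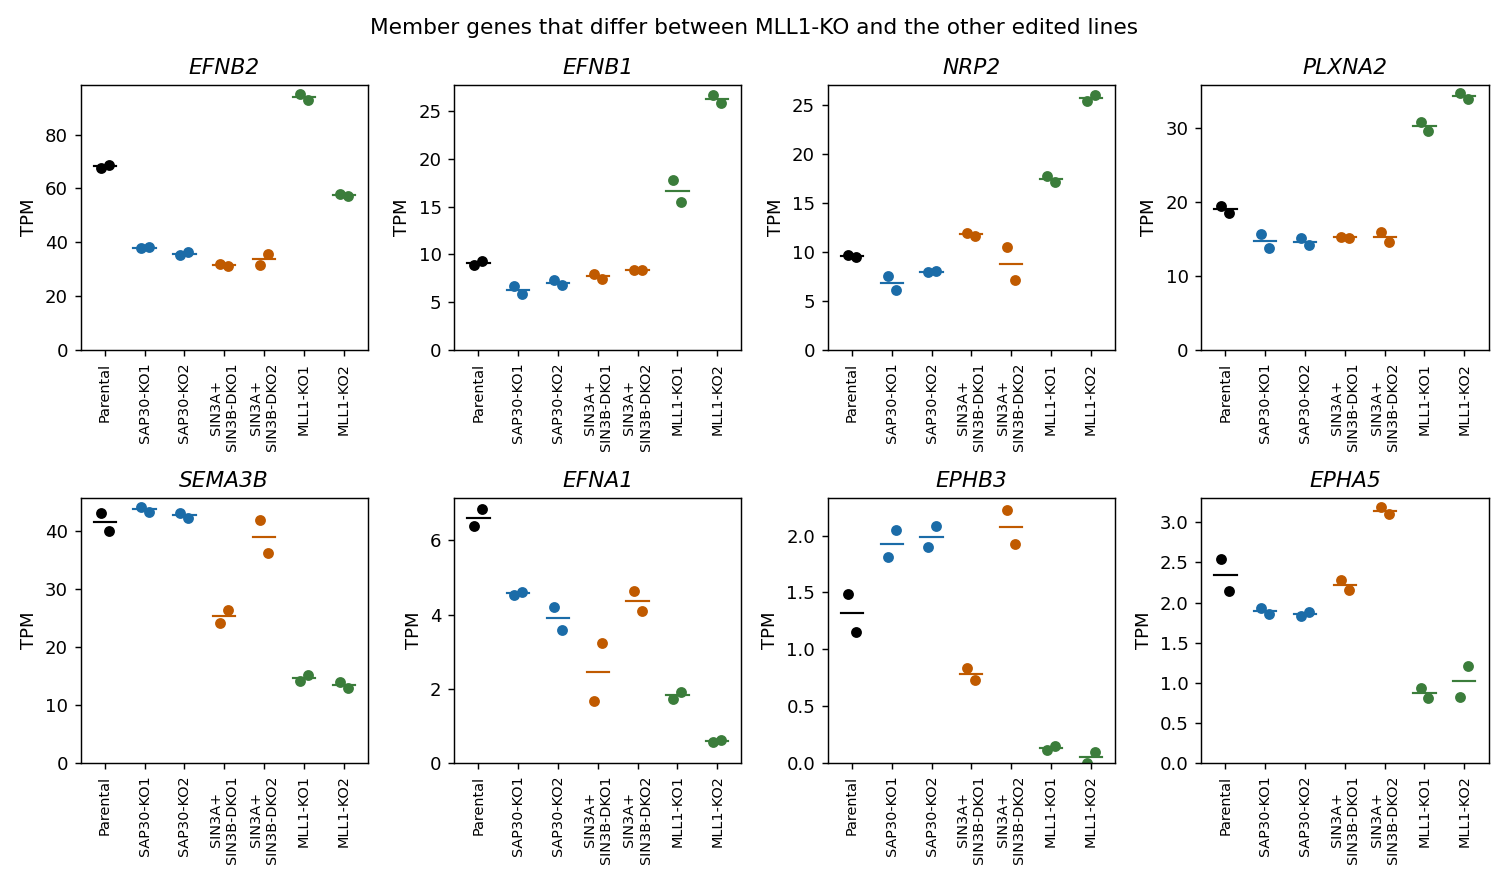
TPM of each library (points) and group means (bars) for 8 members that differed between the MLL1-KO lines (green) and the SAP30-KO (blue) and SIN3A+SIN3B-DKO lines (orange), with parental cells in black and linear axes from 0. EFNB1, NRP2 and PLXNA2 are highest in the MLL1-KO libraries and SEMA3B, EPHB3 and EPHA5 are lowest there. EFNA1 in SIN3A+SIN3B-DKO1 overlaps MLL1-KO1, and EFNB2 is lowest in the SAP30-KO and SIN3A+SIN3B-DKO libraries.

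The genotypes were also compared directly, as the mean of both lines of each. Parental libraries did not enter these differences, but they did enter the shared estimate of the spread and the filter. PLXNA4, which passed the filter through MLL1-KO2 alone, was among the members tested. SAP30-KO and MLL1-KO lines differed at 20 of the 42 members tested, against 19.8% of all genes, and SIN3A+SIN3B-DKO and MLL1-KO lines at 18, against 19.9%. SAP30-KO and SIN3A+SIN3B-DKO lines differed at 8, against 7.47% of all genes. The lower MLL RNA of the SAP30-KO lines goes with the comparison of SAP30-KO and MLL1-KO lines, and its part was not tested. The members higher in SAP30-KO than in SIN3A+SIN3B-DKO lines were SEMA6B, SEMA6C, EPHA6, PLXNA1, PLXND1 and PLXNB3, and those lower were SEMA3F and PLXNC1. PLXNA1 showed the widest gap in TPM, with means of 124.8 in SAP30-KO and 73.3 in SIN3A+SIN3B-DKO lines, a difference of 0.76 ± 0.05.

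Lines of the same genotype differed to unequal extents. SAP30-KO1 and SAP30-KO2 differed at 0 members by limma, against 0.148% of all genes, with 8 members at an unadjusted p under 0.05 and 0 called by voom on reads recovered from the TPM. SIN3A+SIN3B-DKO1 and SIN3A+SIN3B-DKO2 differed at 4 members, against 2.23% of all genes, and EFNA1, EPHB3, SEMA3B and SEMA3D were each lower in SIN3A+SIN3B-DKO1. The count was 2 without SIN3A+SIN3B-DKO1 replicate 1, and 0 when only the libraries compared entered the fit. MLL1-KO1 and MLL1-KO2 differed at 12 members, against 10.4% of all genes. SEMA4D was at 7.93 and 7.81 TPM in MLL1-KO1 and at 15.3 and 16.6 TPM in MLL1-KO2, on either side of the parental 9.83 and 9.06 TPM. SEMA3D, a secreted semaphorin, was at 2.57 and 2.25 TPM in MLL1-KO1 and 0.92 and 0.823 TPM in MLL1-KO2.

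Ligands and receptors were then set side by side. Of the 23 ligands tested, those called lower numbered 6 in SAP30-KO1, 8 in SAP30-KO2, 9 in SIN3A+SIN3B-DKO1, 7 in SIN3A+SIN3B-DKO2, 7 in MLL1-KO1 and 9 in MLL1-KO2. Of the 19 receptors the numbers were 1, 1, 3, 1, 6 and 4 in the same order, and of all genes 7.86%, 8.12%, 8.66%, 7.56%, 16.3% and 14.9% were called lower. Receptors called higher numbered 2 and 3 in the SAP30-KO lines, 0 in both SIN3A+SIN3B-DKO lines and 7 in each MLL1-KO line, and ligands called higher numbered 1 in each of the first 4 lines and 5 in each MLL1-KO line, against 7.80%, 7.44%, 7.76%, 6.0%, 6.89% and 10.2% of all genes. Of the ligands called lower, 3 in each line were the genes that passed the filter through parental cells alone. The median change of the ligands, over all that passed, was -0.22, -0.16, -0.33, -0.20, -0.25 and -0.09, and that of the receptors -0.25, -0.12, -0.27, -0.25, -0.11 and 0.10, while the median of all genes lay between -0.09 and 0.03.

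Some members were called the same way in both lines of a genotype. The SAP30-KO lines shared 7 lower members, 6 ligands and the receptor PLXNB1, and 3 higher members, EPHA6, PLXNB3 and SEMA6D, against 6.79% and 6.17% of all genes. The lines labelled SIN3A+SIN3B-DKO shared 7 lower members, 6 ligands and PLXND1, and SEMA6D higher, against 5.99% and 4.70%. The MLL1-KO lines shared 9 lower members, 7 ligands and the receptors EPHA5 and EPHB3, and 10 higher members, 7 receptors and the ligands EFNB1, SEMA6A and SEMA6D, against 11.4% and 5.00%. SEMA3E, SEMA4G and EFNB3, which passed the filter through parental cells alone, were 3 of the lower ligands in each of these sets, and PLXNA4, which passed through MLL1-KO2 alone, was 1 of the 7 higher receptors. Members are not replicates of a condition, and no test was made between roles.

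Summed TPM gave the levels that this left. Ligand RNA summed to 490.7 and 482.1 TPM in parental libraries, 349.4 to 360.8 in the SAP30-KO libraries, 328.8 to 361.8 in the SIN3A+SIN3B-DKO libraries and 411.6 to 467.4 in the MLL1-KO libraries. The mean was thus 67.7% to 74.1% of parental in the SAP30-KO and SIN3A+SIN3B-DKO lines, and 95.1% and 85.3% in MLL1-KO1 and MLL1-KO2. Receptor RNA summed to 994.9 and 976.5 TPM in parental libraries and its mean was 89.4% and 95.7% of parental in the SAP30-KO lines, 80.7% and 78.3% in the SIN3A+SIN3B-DKO lines, and 96.5% and 106.1% in the MLL1-KO lines. Within the ligands, the secreted class 3 semaphorins lay between 49.8% and 69.3% of parental in all 6 lines. Such sums follow the most abundant genes and do not show that every gene of a class moved. SEMA3F was called lower in all 6 lines, whereas SEMA3B had means of 43.8 and 42.8 TPM in SAP30-KO1 and SAP30-KO2, against 41.6 TPM in parental cells. The class 4 semaphorins lay at 151.0% and 130.3% of parental in MLL1-KO1 and MLL1-KO2, and between 78.9% and 93.9% in the other lines. Of these, SEMA4C had means of 75.0 and 47.1 TPM in MLL1-KO1 and MLL1-KO2, against 39.6 TPM in parental cells, while SEMA4G was called lower in both. Ephrin-B ligands lay between 50.1% and 56.3% of parental in the SAP30-KO and SIN3A+SIN3B-DKO lines, and at 140.6% and 106.7% in the MLL1-KO lines, which held ephrin-A ligands at 61.5% and 64.6%. EFNB2 alone made up 68.2 of the 78.7 TPM of ephrin-B ligands in parental cells.

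**Figure D4:**
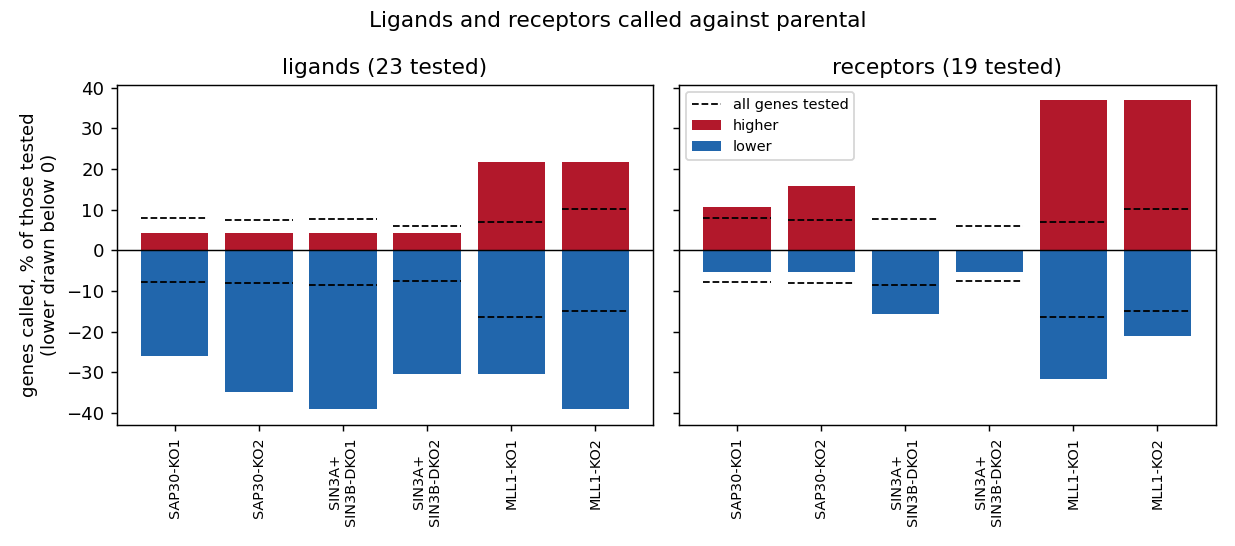
Share of the ligands (left) and receptors (right) tested that were called higher (red, above 0) or lower (blue, drawn below 0) against parental cells in each line, in percent. Dashed lines give the share of all genes tested in the same direction, and the receptors of the SIN3A+SIN3B-DKO lines show no bar above 0.

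Several cognate pairs, taken from textbook knowledge with the values in view, showed how ligand and receptor RNA moved in the same cells. In the MLL1-KO lines SEMA3F was 26.0-fold and 36.4-fold lower, while its receptor chains NRP2 and PLXNA3 both rose. In MLL1-KO1 the PLXNA3 call rested on Parental replicate 2, and with the median change of the genes around it subtracted the value was 0.17 and not called. In the SIN3A+SIN3B-DKO lines and in MLL1-KO2 SEMA3E and its receptor PLXND1 both fell. In the SAP30-KO lines and MLL1-KO1 SEMA3E fell and PLXND1 was not called. SEMA3E passed the filter through parental cells alone. EFNB2 fell in the SAP30-KO and SIN3A+SIN3B-DKO lines with EPHB4 at 0.932, 0.965, 0.766 and 0.759 times its parental mean, called in none of them. EFNA1 fell 3.64-fold and 11.1-fold in MLL1-KO1 and MLL1-KO2 with EPHA2 at 1.04 and 1.15 times its parental mean.

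Genes near a member on the chromosome could move with it. Each member was therefore set beside the median change of a window of 51 tested genes, itself included, by positions in GRCh37. PLXNB3, chrX:153029651-153044801, and PLXNA3, chrX:153686621-153706118, lie 641.8 kb apart on chromosome X. The median of their neighbors was between 0.50 and 0.61 in all 6 lines, so the genes around them were higher than in parental cells in each. With that median subtracted, PLXNB3 was at 0.52 and 0.54 in the SAP30-KO lines and 0.33 and 0.38 in the MLL1-KO lines, called in none of them. PLXNA3 was at 0.05 in SAP30-KO2 and 0.17 in MLL1-KO1, called in neither, and remained called in MLL1-KO2. The part of this shared shift in the calls of both genes was not tested further.

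EPHA6, chr3:96533425-97480376, had neighbor medians of 0.33 in SAP30-KO1 and 0.28 in SAP30-KO2. After subtraction its changes of 0.30 and 0.43 were not called. EFNB2, chr13:107142093-107188010, had a neighbor median of -0.27 in SAP30-KO1 and -0.40 in MLL1-KO1. After subtraction it was at -0.56 in SAP30-KO1, just under the fold minimum, and at 0.86 in MLL1-KO1, called higher. After subtraction EPHA4, chr2:222282747-222438922, was called lower in SAP30-KO1, SAP30-KO2, SIN3A+SIN3B-DKO1, SIN3A+SIN3B-DKO2 and MLL1-KO1, and EFNA1 in all 6 lines. The neighbor medians of SEMA3F and SEMA3E lay between -0.11 and 0.17, and subtraction changed no call of SEMA3F, SEMA3E, SEMA4G, EFNB3 or SEMA6D.

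**Figure D5:**
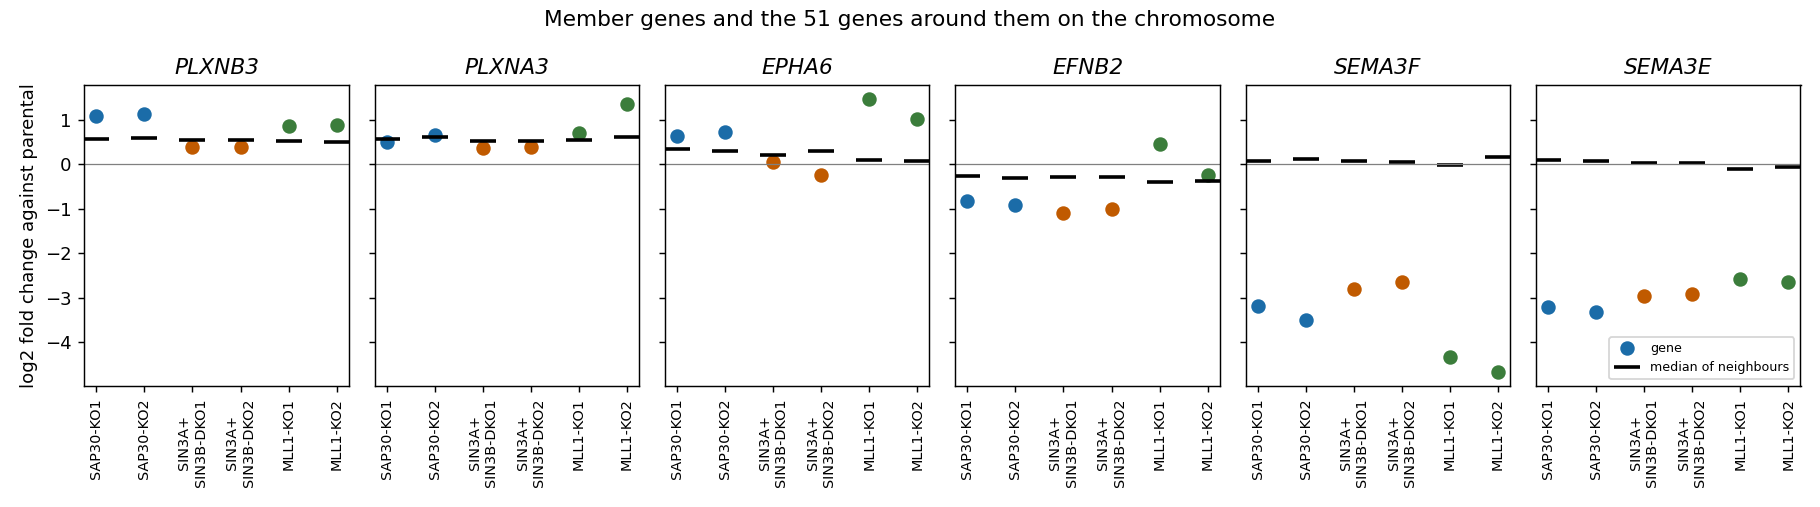
Log2 fold change against parental cells of 6 members (points, colored by genotype as SAP30-KO blue, SIN3A+SIN3B-DKO orange and MLL1-KO green). Black bars give the median change of a window of 51 tested genes on the chromosome, the member included. The bars of PLXNB3 and PLXNA3 lie between 0.50 and 0.61 in all 6 lines, and those of SEMA3F and SEMA3E lie near 0.

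Other members that neighbor each other were also set side by side. EFNA4, EFNA3 and EFNA1 lie in a row on chromosome 1, 9.3 kb and 40.3 kb apart, and of these EFNA1 was called in 4 lines and the other 2 in none. SEMA3F, chr3:50192478-50226508, lies 78.5 kb from SEMA3B, chr3:50304990-50314977, and both fell in the MLL1-KO lines and in SIN3A+SIN3B-DKO1, but SEMA3F alone was called in the other lines. SEMA3C, SEMA3E, SEMA3A and SEMA3D follow each other on chromosome 7, with gaps of 2440.9, 306.6 and 502.8 kb, and only SEMA3E of the 4 was called in more than 3 lines.

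The 12 members that were not tested were EFNA2, EPHA1, EPHA1-AS1, EPHA3, EPHA8, EPHA10, EPHB1, EPHB6, SEMA3G, SEMA4A, SEMA5A and SEMA5B, and EPHA8 was at 0 in every library. SEMA3G, a secreted semaphorin, had 24 and 34 reads in parental libraries, 12 to 16 in the SAP30-KO libraries and 1 to 4 in the MLL1-KO libraries. In MLL1-KO2 the ratio from the reads was 11.4 (interval 4.62 to 36.4). EPHA1 had 0 reads in both parental libraries and 16 and 15 in MLL1-KO2, at least 5.26-fold higher with 3 reads in each parental library taken as the limit. EPHA1 overlaps EPHA1-AS1 on the opposite strand, and since the sources used here do not say whether reads were counted by strand, its values are uncertain. The other untested members had at most 12 reads in any library.

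Genes downstream of these receptors were taken as 2 lists of effectors and partners. Of the semaphorin pathway list, 34 of 39 genes were tested, with 2 called lower and 2 higher in SAP30-KO1, 2 lower and 3 higher in SAP30-KO2, 5 lower and 1 higher in SIN3A+SIN3B-DKO1, 2 lower and 1 higher in SIN3A+SIN3B-DKO2, 11 lower and 3 higher in MLL1-KO1, and 5 lower and 5 higher in MLL1-KO2. MRAS, a Ras-family GTPase, was at 3.18 TPM on average in parental cells, and rose to means of 8.04 to 10.8 TPM in the SAP30-KO and SIN3A+SIN3B-DKO lines and to 5.46 TPM in MLL1-KO2. It fell to 1.91 TPM in MLL1-KO1. RHOD, a small GTPase that binds plexins, was at 15.3 TPM in parental cells and fell to 8.67 TPM in SIN3A+SIN3B-DKO1, 3.49 TPM in MLL1-KO1 and 2.78 TPM in MLL1-KO2.

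Of the ephrin and Eph pathway list, 35 of 39 genes were tested, and those called lower and higher were 2 and 4, 3 and 4, 3 and 2, 3 and 3, 3 and 2, and 3 and 8 in the same order of lines. ARHGEF16, a guanine nucleotide exchange factor known to bind EPHA2, averaged 1.21 TPM in parental cells and was listed at 0 in all 12 edited libraries. It thus passed the filter through parental cells alone and could hardly have been tested without a difference. PICK1, a PDZ scaffold that binds ephrin-B ligands and Eph receptors, rose in all 6 lines, from 2.17 TPM to means between 4.79 and 10.2 TPM. Of all genes tested, 7.86%, 8.12%, 8.66%, 7.56%, 16.3% and 14.9% were called lower in the same order of lines. The shares called higher were 7.80%, 7.44%, 7.76%, 6.0%, 6.89% and 10.2%.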

How the data were processed

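MDA-MB-231 RNA was extracted by the authors with an RNeasy kit and made into 14 mRNA libraries, 2 for each of 7 groups, sequenced on a NextSeq 500. The submitters' processing notes name FastQC 0.11.2, TopHat, featureCounts and hg19. The annotation is not given in the sources used here. The table deposited by the authors is labelled RPKM, but the values are TPM: each library sums to the same total. The tests had been planned for RPKM and were kept, since both suit a log scale. Since the sum of TPM is the same in each library, genes that gain abundance push others down. The labels do not say that the 2 libraries of a group came from separate cultures, so p-values measure only the spread between libraries, which may be technical.

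Steps between low values gave back whole read numbers for 18519 of 18519 genes above 0, within 0.02 reads. Of these, 1103 were above 0 in 1 library alone, and such genes come back as 1 read whatever their true number. Recovered reads summed to 18415036 to 23162682 per library, with a median of 21648530. Ratios for lines with 1 to 3 reads in a library have exact binomial intervals from the reads, and these and the limit of 3 reads cover counting error only.

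Genes of at least 1 TPM in at least 2 libraries, 13540 in all, were fitted as log2(TPM + 0.5) by limma 3.58.1 (R 4.3.3), modelling 7 group means with a mean-variance trend, 7 residual and 3.6 prior degrees of freedom. P-values were adjusted by Benjamini-Hochberg over all genes tested within a comparison. Script steps were tested on simulated data. Tables and plots used Python 3.11.15, pandas 2.3.3, numpy 2.4.6, scipy 1.17.1 and matplotlib 3.10.9. Neighbor medians used 13061 genes (96.5%) placed in GRCh37 with GENCODE lifted models. Promoter stretches came from RefSeq and GRCh38.p14, with 48 of 54 members matched.

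Members and lists were chosen with earlier results of these data known. Named in full were the members called alike in both lines of a genotype and the 3 highest of each family in parental cells. From the pathway lists, genes called alike in all 6 lines or of the largest mean change in either direction were named. The other members were given by count and range, and SEMA4C, SEMA4D, SEMA3D, EFNA3, SEMA3G and EPHA1 were singled out after their values were seen. Alternatives tried were other pseudocounts, filters, fold minimums, scalings and tests, a replicate block, fewer libraries and the neighbor median.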

Additional observations from a re-analysis of the deposited data

Results flagged for a closer look

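Differences between lines of the same genotype are given here as the first line minus the second on the log2(TPM + 0.5) scale, where limma called them. SIN3A+SIN3B-DKO1 was below SIN3A+SIN3B-DKO2 at EFNA1 by -0.78, SEMA3B by -0.62, EPHB3 by -1.0 and SEMA3D by -0.73, and none of the 4 was called when only the libraries compared entered the fit. MLL1-KO1 was below MLL1-KO2 at the ligands SEMA6C (-0.86), SEMA4F (-0.68), SEMA4D (-0.97) and EFNB1 (-0.64) and at the receptors PLXNC1 (-0.60), EPHA7 (-0.77) and PLXNA3 (-0.64). It was above MLL1-KO2 at EFNA1 (1.08), EFNB2 (0.70), SEMA6B (1.10), SEMA4C (0.66) and SEMA3D (1.08), all ligands.

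Differences between genotypes of at least 2-fold were tested as the mean of both lines of one against that of the other. SAP30-KO lines exceeded SIN3A+SIN3B-DKO lines at SEMA6B by 1.40. SAP30-KO lines exceeded MLL1-KO lines at EFNA1 (1.57), SEMA3F (1.15), SEMA3B (1.59), SEMA3D (1.12) and the receptor EPHB3 (2.06). They lay below MLL1-KO lines at PLXNA2 (-1.11), NRP2 (-1.46), SEMA4C (-1.07) and EFNB1 (-1.58).

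SIN3A+SIN3B-DKO lines exceeded MLL1-KO lines at EFNA1 (1.22), SEMA3F (1.76), SEMA3B (1.13), SEMA3D (1.27), EPHB3 (1.63) and EPHA5 (1.13). They lay below MLL1-KO lines at PLXNA2 (-1.05), EFNB2 (-1.16), SEMA4C (-1.19), NRP2 (-1.03), EPHA6 (-1.34) and EFNB1 (-1.32). At EFNA1 the libraries overlapped, with 1.65 and 3.23 TPM in SIN3A+SIN3B-DKO1 and 1.72 and 1.91 TPM in MLL1-KO1. Both genotype comparisons with the MLL1-KO lines share the MLL1-KO libraries.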

How the results depend on the processing

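Values of the named members against parental cells under 26 alternatives came to 4836, of which 4686 kept their direction and their side of the threshold, 96 gained a call, 54 lost one and 0 changed sign with a call. Many of these values could hardly change, since leaving out a library of another edited line does not move the means compared. Of the losses 34 came with the 2-fold minimum, and of the gains 59 came with no fold minimum.

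The fold minimum moved the counts most. Shares of all genes under the alternatives are not given here, so the counts below cannot be read against a background. At 2-fold, members lower than parental were 4 in SAP30-KO1, 4 in SAP30-KO2, 7 in SIN3A+SIN3B-DKO1 and 8 in MLL1-KO1, and members higher were 2 in SAP30-KO2, 1 in MLL1-KO1 and 6 in MLL1-KO2. At 2-fold both SAP30-KO lines shared 4 lower members, both MLL1-KO lines 1 higher and all 6 lines 0 higher. Differences at 2-fold were 1 between the SIN3A+SIN3B-DKO lines, 3 between the MLL1-KO lines, 1 between SAP30-KO and SIN3A+SIN3B-DKO, and 9 between SAP30-KO and MLL1-KO. With no fold minimum there were 19 lower and 5 higher members in SAP30-KO1, 18 lower and 9 higher in SAP30-KO2, 26 lower and 5 higher in SIN3A+SIN3B-DKO1, and 21 lower and 7 higher in SIN3A+SIN3B-DKO2, with 21 lower in MLL1-KO1. Shared by both lines were then 16 lower and 5 higher in SAP30-KO, 21 and 4 in SIN3A+SIN3B-DKO, and 16 lower in MLL1-KO, and all 6 lines shared 8 lower and 3 higher. Differences then numbered 10 between the SIN3A+SIN3B-DKO lines, 28 between the MLL1-KO lines, 23 between SAP30-KO and SIN3A+SIN3B-DKO, 36 between SAP30-KO and MLL1-KO, and 37 between SIN3A+SIN3B-DKO and MLL1-KO.

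Members higher in SIN3A+SIN3B-DKO2 were 2 with a pseudocount of 0.1, 4 under quantile normalization and 5 by voom. Voom also gave 2 higher members in SIN3A+SIN3B-DKO1, 2 in both SIN3A+SIN3B-DKO lines and 2 in all 6 lines. A pseudocount of 1 gave 0 higher members in all 6 lines and 5 differences between SAP30-KO and SIN3A+SIN3B-DKO. Quantile normalization moved the median of all genes by 0.127 in MLL1-KO1. With only the libraries compared in the fit, the SIN3A+SIN3B-DKO lines differed at 0 members. With the neighbor median subtracted, members higher were 1 in SAP30-KO1, 1 in SAP30-KO2 and 1 in both, and a fit of the same 13061 genes without subtraction, added after seeing the data, kept the counts 3, 4 and 3.

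Leaving out 1 library at a time, a lone library being assumed to vary like the other groups, gave 1 to 3 higher members in SIN3A+SIN3B-DKO2, with 3 without Parental replicate 1 and 2 without either library of that line, and 2 to 4 differences between the SIN3A+SIN3B-DKO lines. Deviations of libraries that share a replicate number correlated by 0.01 on average over 21 pairs of groups (-0.07 to 0.08), so the numbers do not pair the libraries. With the replicate number as a block, members lower were 7, 9, 12, 8, 13 and 13 and members higher 3, 4, 1, 1, 12 and 12 in SAP30-KO1, SAP30-KO2, SIN3A+SIN3B-DKO1, SIN3A+SIN3B-DKO2, MLL1-KO1 and MLL1-KO2, which moved no count. Members with few reads, such as EFNB3 and EPHB3, have wide counting intervals of the fold.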
